A study of Mus musculus with 36 samples.

Results

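The Bcl2 family holds the genes that decide at the mitochondrion whether a T cell lives or dies, and 10 of its members were followed here among the 45706 genes counted in each library: the survival genes Bcl2, Bcl2l1 and Mcl1, the effectors Bax and Bak1, the BH3-only genes Bcl2l11, Bbc3, Pmaip1 and Bid, and Bcl2l14. The members were given by symbol, a choice made with earlier results of these data known, and each symbol was matched to 1 gene of the GENCODE M21 annotation of GRCm38. All 10 were found, and all 10 passed the filter on low counts in every comparison. RNA of mouse splenic CD4 T cells was sequenced in 36 libraries, of which 28 fell into 10 groups. The mutant strain was C57BL/6J-Ets1-SE-KO, called KO below, and its reference was C57BL/6J, called WT; the labels used here do not state the position of the deletion, nor ages or sexes. Naive CD4 T cells were isolated with negative selection beads and gave 2 KO and 2 WT libraries. Th1 cells had been grown from naive cells on plates coated with anti-CD3, with IL-12, IL-2 and soluble anti-CD28, and gave 3 KO and 3 WT libraries. Th2 cells, for which the labels used here describe no culture, gave 3 KO and 3 WT libraries. A second Th1 experiment held KO cells with a retrovirus named Ets1-RV (4 libraries), WT cells with an empty-vector retrovirus, EV (4 libraries), and untransduced KO and WT cells (2 libraries each). Its libraries carry B numbers 1 and 2, and libraries of the same B number in a group were summed, so n = 2 per group. For the other 8 libraries of that experiment the 2 labels contradict each other on the virus, and they were kept out of all comparisons. Within naive cells and the first cultures no label shows that libraries came from separate animals, so p-values there measure the spread between libraries, which may be technical.

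Members of the Bcl2 family control the permeability of the outer mitochondrial membrane. Bcl2, Bcl-xL (the product of Bcl2l1) and Mcl-1 hold Bax and Bak in check, while BH3-only proteins such as Bim (Bcl2l11), Puma (Bbc3), Noxa (Pmaip1) and Bid tip the balance towards pore formation by Bax or Bak, release of cytochrome c and caspase activation. In T cells Bcl2 and Mcl1 are known to keep resting cells alive, Bcl2l1 is known to be induced on activation, and Bim is known to be needed for the death of T cells after a response or on cytokine withdrawal.

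As a check of the genotype, Ets1, the transcription factor gene that gives the strain its name, was read in every group. Ets1 stood at 634 to 659 CPM (the gene's share of a library's gene counts in the usual CPM unit, scaled between all labelled libraries by the trimmed mean of M values, TMM) in the 2 naive KO libraries, against 1667 to 1669 CPM in the 2 naive WT libraries. In Th1 cells it stood at 477 to 551 CPM in KO, against 650 to 739 CPM in WT, and in Th2 cells at 614 to 645 CPM in KO, against 718 to 751 CPM in WT. The Th2 difference of Ets1 did not pass (log2 fold change -0.23, SE 0.06, adjusted p = 0.177, edgeR's quasi-likelihood test). KO cells with Ets1-RV held 450 to 537 CPM, against 254 to 276 CPM in untransduced KO cells. WT cells with EV held 388 to 419 CPM, and untransduced WT cells 442 to 484 CPM. KO cells with Ets1-RV lay above WT cells with EV, so Ets1 does not mark the genotype there. Another gene, Gm27162, was at 0 CPM in all libraries of every KO group, against 1.45 to 8.16 CPM in the WT groups. The naive groups differed in more than genotype: Xist, which marks female cells, was at 0 CPM in both naive KO libraries, against 428 to 460 CPM in naive WT, and the Y-linked Uty was at 40.4 to 46.7 CPM in naive KO, against 0 CPM in naive WT. Sex and genotype therefore cannot be told apart in naive cells. In each group of the second experiment the libraries of B number 1 held Uty (21.02 to 29.1 CPM) with Xist at 0.409 CPM or less, and those of B number 2 held Xist (258 to 398 CPM) with Uty at 0 CPM, so there the sexes were balanced. All libraries of the first Th1 and Th2 cultures lacked Uty. Of the defining markers of CD4 T cells, 7 of 7 were above 0 in every group.

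In naive cells, Th1 cells and Th2 cells 4 of the 10 members passed the test between genotypes in at least 1 state. Of all genes tested, 17.7% passed in naive cells, 3.66% in Th1 cells and 0.325% in Th2 cells. The share of all genes passing in at least 1 state was not counted. The promoter windows of these 4 members are shown because Ets1 is of the Ets family, whose proteins bind a GGAA core. The windows are from RefSeq (GRCm38.p6), run from 250 bases before to 50 bases after the most upstream start listed for the gene, and are written 5′ to 3′ on the gene's strand; capitals mark GGAA or, for the other strand, TTCC. They lie at chr1:106714241-106714540 on the minus strand for Bcl2, at chr2:128125788-128126087 on the plus strand for Bcl2l11, at chr7:16309333-16309632 on the plus strand for Bbc3, and at chr6:134396079-134396378 on the plus strand for Bcl2l14.
Bcl2: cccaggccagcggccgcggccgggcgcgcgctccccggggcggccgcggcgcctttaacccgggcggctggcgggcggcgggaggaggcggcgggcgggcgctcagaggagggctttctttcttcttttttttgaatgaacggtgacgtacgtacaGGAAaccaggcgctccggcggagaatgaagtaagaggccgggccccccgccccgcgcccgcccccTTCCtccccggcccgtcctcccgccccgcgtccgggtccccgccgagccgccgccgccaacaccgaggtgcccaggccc
Bcl2l11: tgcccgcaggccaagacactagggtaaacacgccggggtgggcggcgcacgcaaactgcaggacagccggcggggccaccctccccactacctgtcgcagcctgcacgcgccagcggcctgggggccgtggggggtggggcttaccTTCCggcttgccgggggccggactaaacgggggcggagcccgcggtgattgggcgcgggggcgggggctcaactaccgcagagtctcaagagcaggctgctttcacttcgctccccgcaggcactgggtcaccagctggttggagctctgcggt
Bbc3: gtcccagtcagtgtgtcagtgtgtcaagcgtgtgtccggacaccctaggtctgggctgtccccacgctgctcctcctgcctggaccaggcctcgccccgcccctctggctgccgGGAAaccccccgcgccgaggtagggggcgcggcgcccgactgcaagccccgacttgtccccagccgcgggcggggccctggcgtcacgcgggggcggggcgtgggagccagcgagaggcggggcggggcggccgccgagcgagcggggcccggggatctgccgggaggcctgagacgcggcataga
Bcl2l14: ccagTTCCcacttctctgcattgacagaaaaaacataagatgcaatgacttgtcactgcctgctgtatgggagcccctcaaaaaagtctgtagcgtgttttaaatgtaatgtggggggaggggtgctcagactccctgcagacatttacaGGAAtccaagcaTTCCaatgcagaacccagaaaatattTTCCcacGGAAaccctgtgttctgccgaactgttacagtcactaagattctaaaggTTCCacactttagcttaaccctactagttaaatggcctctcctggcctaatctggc
The core occurred 2 times in the Bcl2 window, 1 time in the Bcl2l11 window, 1 time in the Bbc3 window and 6 times in the Bcl2l14 window, counting both strands. It occurred at least once in 96.0% of the 32851 promoter windows in the table, with a median of 3, so its presence sets none of these genes apart. The longer CCGGAA, which contains the core, occurred 1 time in the Bcl2l11 window and not in the other 3, against 14.9% of all windows that held it. Windows were read for 9 of the 10 members and not for Pmaip1. Other members not called between genotypes also held the core: 10 times for Mcl1, 7 for Bak1, 6 for Bcl2l1 (most upstream start), 5 for Bid and 2 for Bax. In these windows CCGGAA occurred 2 times for Mcl1, 1 time each for Bcl2l1 and Bid, and 0 times for Bak1 and Bax. A match of letters is a description and shows no binding.

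Across resting and cultured WT cells Mcl1 had the highest level per exon length in all 3 states, and the order of the other members changed with the state. In CPM per kb of merged exons, Mcl1 averaged 180 ± 0.460 in naive WT cells (SD, n = 2), 97.5 ± 9.49 in Th1 WT cells (SD, n = 3) and 139 ± 9.95 in Th2 WT cells (SD, n = 3). Bcl2 came next in naive cells at 27.8 ± 0.515 CPM per kb. It averaged 28.5 ± 4.28 CPM per kb in Th1 and 25.9 ± 1.30 in Th2 cells. Bcl2l11 followed in naive cells at 12.7 ± 0.0121 CPM per kb, and only Bid was lower in Th1 and Th2 cells, where Bcl2l11 stood at 2.28 ± 0.536 and 2.74 ± 0.0460 CPM per kb. Bax had the second highest level per kb in both cultured states, at 34.6 ± 3.58 in Th1 and 40.6 ± 1.86 in Th2 cells, against 11.4 ± 1.53 in naive cells. Bid and Bcl2l14 were the lowest in naive cells, at 1.98 ± 0.0360 and 0.327 ± 0.0824 CPM per kb. Exon length was the union of annotated exons, so a gene that uses a short isoform reads low on this scale.

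**Figure D1:**
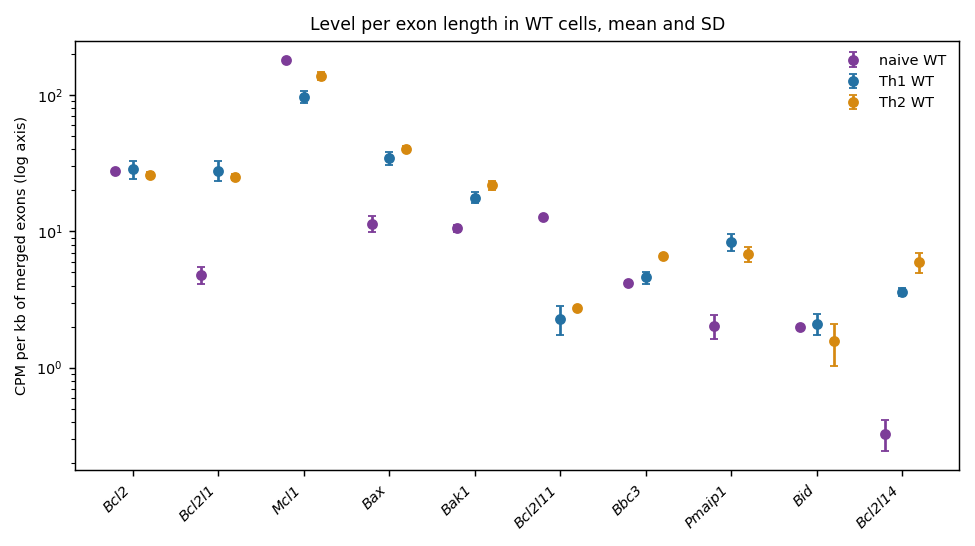
Level of each member per kb of merged exons (CPM per kb, log axis) in naive, Th1 and Th2 WT cells; points are means and bars are SDs over 2, 3 and 3 libraries. Mcl1 is highest in all 3 states, and Bcl2l11 lies below Pmaip1 and Bbc3 in the cultured cells.

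Culture was compared with the naive state in WT cells first, since most members changed there. Naive and cultured libraries were made as separate sets, so state and set cannot be told apart. Of all 14029 genes tested, 76.1% were called in Th1 against naive cells and 76.9% in Th2 against naive cells (edgeR's quasi-likelihood test, adjusted p under 0.05), so a call in these comparisons sets no gene apart. The median log2 fold change over all genes was 0.10 for Th1 and 0.08 for Th2 over naive. Of the 10 members, 7 were called in Th1 (5 higher, 2 lower) with a median of 0.45, and 8 in Th2 (6 higher, 2 lower) with a median of 0.86.

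Among the survival genes, Bcl2l1 was higher and Mcl1 lower in cultured cells, and Bcl2 passed in neither state. Bcl2l1 (chr2:152780668-152831728), the gene of Bcl-xL, had 136, 145 and 105 CPM in the Th1 WT libraries and 108, 116 and 119 CPM in the Th2 WT libraries, against 24.1 and 19.7 CPM in the naive WT libraries. No cultured library came near a naive one: log2 fold change 2.56 (SE 0.13) for Th1 and 2.39 (SE 0.13) for Th2 over naive, which is 5.88-fold and 5.26-fold. Mcl1 (chr3:95658788-95663176), which codes for a short-lived survival protein, had 302, 367 and 330 CPM in Th1 WT and 505, 482 and 438 CPM in Th2 WT, against 617 and 615 CPM in naive WT. The 3 states did not overlap, with log2 fold changes of -0.88 (SE 0.08) for Th1 and -0.36 (SE 0.08) for Th2 over naive. Bcl2 (chr1:106538178-106714274) had 238, 239 and 306 CPM in Th1 WT and 245, 242 and 223 CPM in Th2 WT, against 251 and 258 CPM in naive WT. The Th1 libraries lie on both sides of the naive ones, and the Th2 libraries lie just below. Its log2 fold change was 0.04 (SE 0.10, adjusted p = 0.693, edgeR) for Th1 and -0.09 (SE 0.10, adjusted p = 0.377, edgeR) for Th2.

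Both pore-forming effectors were higher in cultured cells. Bax (chr7:45461697-45466898) had 55.4, 59.7 and 48.5 CPM in Th1 WT and 62.3, 67.4 and 62.4 CPM in Th2 WT, against 19.7 and 16.3 CPM in naive WT, a log2 fold change of 1.61 (SE 0.13) and 1.84 (SE 0.13). Bak1 (chr17:27019810-27029009) had 46.8, 42.2 and 39.1 CPM in Th1 WT and 47.7, 55.4 and 54.7 CPM in Th2 WT, against 24.4 and 26.4 CPM in naive WT, a log2 fold change of 0.76 (SE 0.12) and 1.06 (SE 0.12). Every cultured library was above every naive one for both genes. Bak1 overlaps Ggnbp1 on the other strand, Bcl2 overlaps D630008O14Rik and Bid overlaps Bcl2l13; counting used the strand, so reads of such partners are largely kept apart. Bcl2 also overlaps Mir3473f and Gm37053 on its own strand, which counting by strand does not separate.

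The BH3-only genes moved in different directions. Bcl2l11, the gene of Bim, had 13.4, 21.2 and 20.4 CPM in Th1 WT and 21.8, 21.8 and 22.4 CPM in Th2 WT, against 102 and 102 CPM in naive WT. It was lower in every cultured library, by 5.53-fold in Th1 (log2 fold change -2.47, SE 0.14) and by 4.59-fold in Th2 (log2 fold change -2.20, SE 0.14). Pmaip1, the gene of Noxa, went the other way, with 21.3, 20.5 and 26.4 CPM in Th1 WT and 18.1, 16.6 and 21.1 CPM in Th2 WT, against 6.29 and 4.74 CPM in naive WT (log2 fold change 2.05, SE 0.19, and 1.76, SE 0.20). Bbc3, the gene of Puma, was higher in Th2 than in naive cells, with 14.6, 13.7 and 13.7 CPM in Th2 WT, against 9.13 and 8.68 CPM in naive WT (log2 fold change 0.66, SE 0.17). In Th1 WT cells Bbc3 had 9.07, 10.8 and 9.34 CPM, a log2 fold change of 0.13 (SE 0.18) over naive that did not pass (adjusted p = 0.498, edgeR). Bid (chr6:120891930-120916853), which is cut by caspase 8 and links death receptors to the mitochondrion, had 3.49 to 8.26 CPM in all WT Th1 and Th2 libraries, against 6.92 and 7.10 CPM in naive WT, and passed in neither state (adjusted p = 0.77 and 0.301, edgeR). Bcl2l14, which codes for Bcl-G, a member with a less settled role in cell death, had the largest fold change of the 10 members. It had 14.96, 13.6 and 15.6 CPM in Th1 WT and 28.8, 21.03 and 23.1 CPM in Th2 WT, against 1.10 and 1.58 CPM in naive WT. The log2 fold changes were 3.45 (SE 0.25) and 4.18 (SE 0.24). The naive WT libraries held only 7 and 10 counts of Bcl2l14, so the size of these fold changes rests on few reads.

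**Figure D2:**
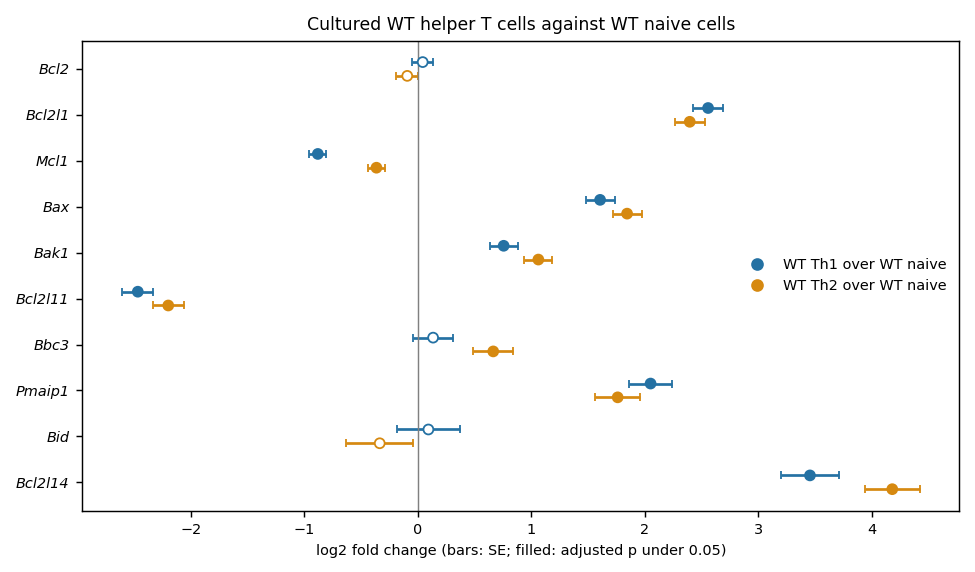
Log2 fold change of each member in WT Th1 and WT Th2 cells over WT naive cells, with bars for the SE; filled points passed an adjusted p of 0.05 in edgeR's quasi-likelihood test. Bcl2l14, Bcl2l1, Pmaip1, Bax and Bak1 lie to the right of 0, Bcl2l11 and Mcl1 to the left, and Bcl2 and Bid are open in both states.

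**Figure D3:**
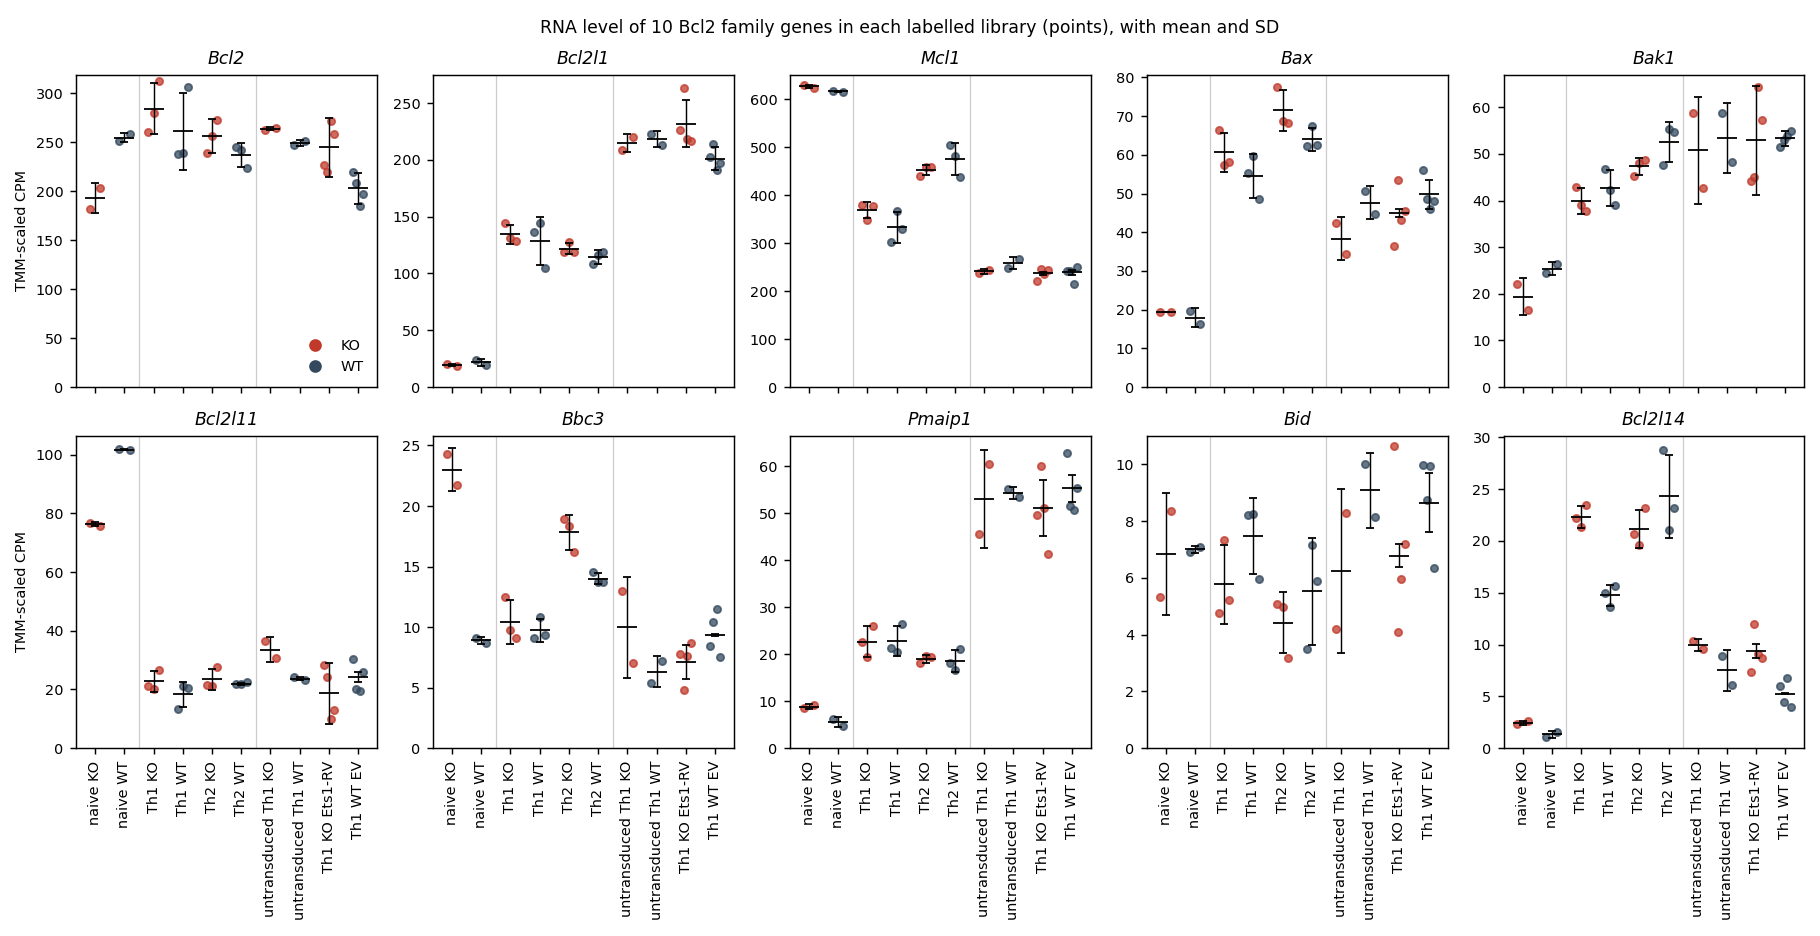
TMM-scaled CPM of each member in every labelled library (points; KO red, WT dark), with the mean and SD per group as black lines; grey lines part naive cells, the first Th1 and Th2 cultures, and the second Th1 experiment, where mean and SD are over 2 B numbers. Bcl2l1 and Bcl2l14 are lowest in naive cells, Bcl2l11 and Mcl1 are highest there, and the naive KO points stand apart from the naive WT points for Bcl2, Bcl2l11 and Bbc3.

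Between the helper fates the members that passed were lower in Th1 than in Th2 cells. In WT cells 4 of 10 members were called, all lower in Th1, against 29.5% of all 12616 genes tested. Mcl1 had the strongest call, with 302, 367 and 330 CPM in Th1 WT, against 505, 482 and 438 CPM in Th2 WT (log2 fold change -0.53, SE 0.07, adjusted p = 1.96e-05, edgeR). Bcl2l14 followed at -0.74 (SE 0.12, adjusted p = 0.000115, edgeR) and Bbc3 at -0.54 (SE 0.14, adjusted p = 0.00633, edgeR); the Th1 and Th2 WT libraries of Mcl1, Bcl2l14 and Bbc3 did not overlap. Bak1 was lower at -0.32 (SE 0.09, adjusted p = 0.0117, edgeR), a call that was lost without Th1 WT library number 3 (adjusted p = 0.06) and with counts taken without strand (adjusted p = 0.0826). Bax had a log2 fold change of -0.25 and an adjusted p of 0.051 (edgeR), and passed without Th1 WT library number 2 (adjusted p = 0.0232), Th1 KO library number 1 (0.0413) or Th2 KO library number 1 (0.04996). Bcl2l1 passed without Th1 WT library number 3 (log2 fold change 0.29, adjusted p = 0.00981, higher in Th1), against 0.15 and an adjusted p of 0.272 (edgeR) with all libraries. Pmaip1 passed only with scaling by total gene counts (log2 fold change 0.35, adjusted p = 0.0407). In KO cells 2 of 10 members were called, against 17.5% of all genes, and both were lower in Th1: Mcl1 at -0.30 (SE 0.07, adjusted p = 0.00658, edgeR) and Bbc3 at -0.78 (SE 0.13, adjusted p = 0.000426, edgeR). In the WT comparison markers of other cells moved too. Of B cell markers 3 of 5 tested were lower in Th1 WT (4.39 to 10.6 CPM summed, against 8.31 to 25.9 CPM in Th2 WT), and of dendritic cell markers 2 of 3 were lower (1.39 to 5.01 CPM, against 6.14 to 12.5 CPM). Of gamma-delta markers 4 of 4 were higher (16.7 to 28.3 CPM, against 5.90 to 11.1 CPM), and of the handling-stress list 3 of 15 were higher and 7 lower. Their part in the member differences was not tested. In KO cells Bcl2l14 had 22.2, 21.3 and 23.4 CPM in Th1, against 20.7, 19.6 and 23.2 CPM in Th2, a log2 fold change of 0.07 (SE 0.12) that did not pass. Bax (-0.24) and Bak1 (-0.25) did not pass in KO cells (adjusted p = 0.0758 and 0.0615, edgeR), but passed without Th1 KO library number 1 (0.0336 and 0.0412) or Th1 WT library number 3 (0.0499 and 0.0471), and Bak1 also with counts taken without strand (0.0334).

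In naive cells Bbc3 was higher and Bcl2 and Bcl2l11 were lower in KO than in WT. These were 3 of 10 members, against 17.7% of all 11246 genes tested, of which 399 to 1219 were called when any 1 of the 4 libraries was left out, against 1987 with all. Bbc3 had 24.3 and 21.7 CPM in naive KO, against 9.13 and 8.68 CPM in naive WT. The KO libraries were both well above the WT libraries, a log2 fold change of 1.37 (SE 0.21, adjusted p = 5.11e-09, edgeR), which is 2.58-fold. Bcl2 had 182 and 204 CPM in naive KO, against 251 and 258 CPM in naive WT, a log2 fold change of -0.40 (SE 0.07, adjusted p = 3.77e-07, edgeR), which is 1.32-fold lower. Bcl2l11 had 76.7 and 75.8 CPM in naive KO, against 102 and 102 CPM in naive WT, a log2 fold change of -0.41 (SE 0.09, adjusted p = 0.0002, edgeR). Neither gene's groups overlapped, and the survival gene and the death gene were lower in KO by 1.32-fold and 1.33-fold. The Bcl2l11 call was lost when either KO library was left out, with an adjusted p of 0.0651 without the first and 0.0865 without the second; the calls of Bcl2 and Bbc3 were kept under all 9 alternatives run.

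The other 7 members did not pass in naive cells. Pmaip1 had 8.51 and 9.18 CPM in naive KO, against 6.29 and 4.74 CPM in naive WT (log2 fold change 0.68, SE 0.29, adjusted p = 0.0957, edgeR). Bak1 had 22.2 and 16.6 CPM in naive KO, against 24.4 and 26.4 CPM in naive WT (log2 fold change -0.39, SE 0.17, adjusted p = 0.0958, edgeR). In both cases the groups did not overlap, but neither gene passed. The same held for Bcl2l14 and Mcl1. With 2 libraries per group, the share of all genes without overlap was not counted, so a lack of overlap sets none of these genes apart. Bcl2l14 had 2.30 and 2.58 CPM in naive KO, against 1.10 and 1.58 CPM in naive WT, with a log2 fold change of 0.86 and an SE of 0.56. Mcl1 had 630 and 624 CPM in naive KO, against 617 and 615 CPM in naive WT; its log2 fold change of 0.03 has an approximate 95% interval of -0.09 to 0.14. Bax, Bcl2l1 and Bid overlapped between the genotypes.

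Several measures moved with the naive genotype beside these genes. Counts of markers called here stand against 17.7% of all genes called in this comparison. The handling-stress list of immediate-early and heat-shock genes had 12 of 15 members higher in KO, with a summed level of 9832 to 10380 CPM in KO, against 6048 to 6052 CPM in WT. CD8 markers summed to 31.9 to 32.5 CPM in KO, against 15.9 to 16.1 CPM in WT. Erythroid and platelet markers summed to 6.76 to 7.44 CPM in KO, against 21 to 21.4 CPM in WT, with 3 of 3 tested lower and Hba-a2 at 0 in KO and Gp9 at 0 in WT. Myeloid markers summed to 14.8 to 18.6 CPM in KO, against 19.3 to 23.6 CPM in WT, with 2 of 5 tested lower and 1 higher (Itgam, log2 fold change 1.21, SE 0.34), and B cell markers to 4.25 to 5.31 CPM in KO, against 7.71 to 12 CPM in WT. Of Treg markers 2 of 4 were higher in KO, Ikzf2 (1.08, SE 0.20) and Foxp3 (0.84, SE 0.24), and of CD4 T cell markers 4 of 7. The mitochondrial share of counts was 14.3% and 16.7% in KO, against 12.6% and 12.96% in WT. The part of these measures, and of the difference in sex, in the changes of Bbc3, Bcl2 and Bcl2l11 was not tested. In bulk RNA, fewer cells of a type and less RNA per cell cannot be told apart.

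**Figure D4:**
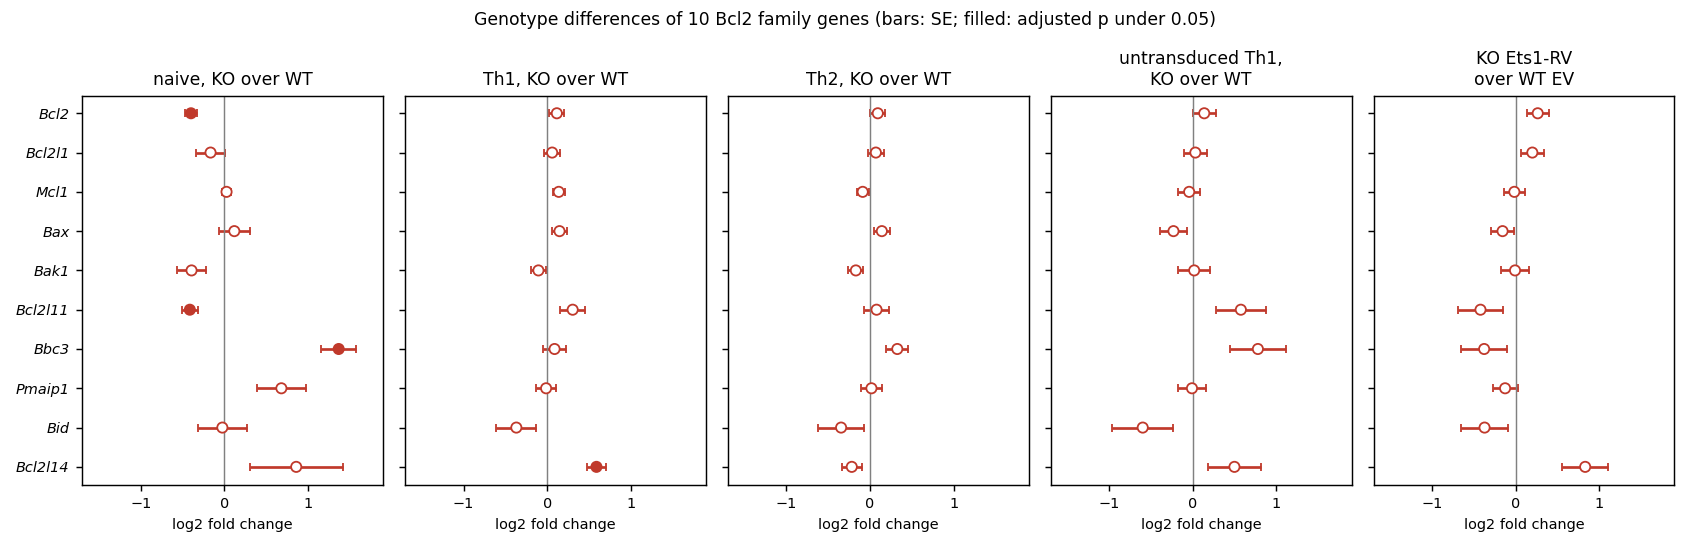
Log2 fold change of each member between genotypes, with bars for the SE, in naive, Th1, Th2 and untransduced Th1 cells and in KO cells with Ets1-RV over WT cells with EV; filled points passed an adjusted p of 0.05 in edgeR's quasi-likelihood test. The filled points are Bcl2, Bcl2l11 and Bbc3 in naive cells and Bcl2l14 in Th1 cells.

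After Th1 culture Bcl2l14 alone passed between genotypes, 1 of 10 members against 3.66% of all 12616 genes. It had 22.2, 21.3 and 23.4 CPM in Th1 KO, against 14.96, 13.6 and 15.6 CPM in Th1 WT. Every KO library was above every WT library, a log2 fold change of 0.59 (SE 0.12, adjusted p = 0.00809, edgeR), which is 1.5-fold. Markers of gamma-delta T cells were lower in the same Th1 KO libraries, with 4 of 4 tested lower and a summed level of 3.50 to 8.36 CPM, against 16.7 to 28.3 CPM in Th1 WT, and 3 of 4 Th2 markers were higher; their part in the Bcl2l14 difference was not tested. Bcl2 had 261, 280 and 312 CPM in Th1 KO, against 238, 239 and 306 CPM in Th1 WT, and Bcl2l11 had 21.2, 20.3 and 26.8 CPM in Th1 KO, against 13.4, 21.2 and 20.4 CPM in Th1 WT. Both overlapped between genotypes, with log2 fold changes of 0.11 (SE 0.09) and 0.30 (SE 0.15). Bbc3 had 12.5, 9.77 and 9.07 CPM in Th1 KO, against 9.07, 10.8 and 9.34 CPM in Th1 WT, and the lowest KO library equalled the lowest WT library.

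In Th2 cells 0 of 10 members were called by edgeR's quasi-likelihood test, against 0.325% of all genes, with 1 member at an unadjusted p under 0.05 and 0 called by DESeq2. That member was Bbc3, with 18.9, 18.3 and 16.2 CPM in Th2 KO, against 14.6, 13.7 and 13.7 CPM in Th2 WT. All 3 KO libraries were above the WT libraries, but the log2 fold change of 0.33 (SE 0.13) had an adjusted p of 0.418 (edgeR). Bax was likewise higher in all 3 KO libraries, at 77.7, 68.7 and 68.3 CPM, against 62.3, 67.4 and 62.4 CPM in WT. Its log2 fold change of 0.14 (SE 0.09) did not pass (adjusted p = 0.713, edgeR). The share of all genes that separate in this way was not counted. Bcl2l14 had 20.7, 19.6 and 23.2 CPM in Th2 KO, against 28.8, 21.03 and 23.1 CPM in Th2 WT, which overlap (log2 fold change -0.22, SE 0.12).

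Whether the effect of the genotype differed between states was tested directly. Between Th1 and Th2 cells 0 of 10 members differed by edgeR, and 0.0% of all genes did (2 members and 1225 genes at an unadjusted p under 0.05, and 1 member and 22 genes by DESeq2). For Bcl2l14 the genotype effect in Th1 minus that in Th2 was 0.81 (log2, SE 0.17, adjusted p = 0.197, edgeR); it passed with DESeq2 (adjusted p = 0.0408) and without the filter on low counts (adjusted p = 0.00188). Between Th1 and naive cells 3 of 10 members differed, against 3.05% of all 14029 genes. Their differences were 0.52 for Bcl2 (SE 0.14, adjusted p = 0.0328, edgeR), 0.72 for Bcl2l11 (SE 0.20, adjusted p = 0.0435, edgeR) and -1.28 for Bbc3 (SE 0.23, adjusted p = 0.00222, edgeR). Between Th2 and naive cells 2 of 10 members differed, against 3.29% of all genes, with 0.50 for Bcl2 (SE 0.14, adjusted p = 0.0386, edgeR) and -1.04 for Bbc3 (SE 0.23, adjusted p = 0.0101, edgeR). Positive values here mean that KO over WT was greater in the cultured cells than in the naive cells. The naive libraries also stand apart in sex and in the handling-stress list, and the naive effect enters both differences. Without any 1 of the 4 naive libraries the Bcl2 and Bcl2l11 differences no longer passed, with adjusted p up to 0.205 for Bcl2 and 0.158 for Bcl2l11. The Th1 difference of Bcl2 was also lost without Th1 WT library 1 or 2 or Th1 KO library 3, that of Bcl2l11 without Th1 WT library 1, Th1 KO library 3, Th2 WT library 1 or Th2 KO library 1 or 2, and the Th2 difference of Bcl2 without Th2 WT library 1 or 3 or Th2 KO library 2 or 3. The Bbc3 difference was lost for Th2 without naive WT library 2 (adjusted p = 0.0607) and for Th1 under no alternative run.

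In the second Th1 experiment none of the members passed in any of the 5 comparisons by edgeR. Untransduced KO against WT cells called 0 of 10 members, against 1.24% of all 11072 genes (1 member at an unadjusted p under 0.05, 0 by DESeq2). KO with Ets1-RV against WT with EV called 0 of 10, against 0.56% of all genes (1 member at an unadjusted p under 0.05, 0 by DESeq2). Ets1-RV against untransduced in KO cells called 0 of 10, against 0.19% of all genes (1 member at an unadjusted p under 0.05, 0 by DESeq2). EV against untransduced in WT cells called 0 of 10 and 0.0% of all genes (0 members and 268 genes at an unadjusted p under 0.05, 0 members by DESeq2). The difference between the KO and WT virus effects called 0 of 10 and 0.0% of all genes (2 members and 528 genes at an unadjusted p under 0.05; 0 members and 3 genes by DESeq2). With B number as a block, which in this experiment also carries sex, 212 genes were called between untransduced KO and WT, 95 between KO with Ets1-RV and WT with EV and 45 between KO with Ets1-RV and untransduced KO, and 0 of the 10 members passed in any of the 3. In simulated data for the untransduced comparison 8.96% of genes changed 1.5-fold, 43.1% of those changed 2-fold and 67.7% of those changed 4-fold were recovered. For naive KO against WT, also with n = 2 per group, the same shares were 48.5%, 77.3% and 95.4%.

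Bcl2l14 stood higher in untransduced KO than in untransduced WT libraries, and in KO with Ets1-RV than in WT with EV, but passed in neither comparison. In the second of these virus and genotype differ together and cannot be told apart. It had 10.4 and 9.55 CPM in untransduced KO, against 8.93 and 6.07 CPM in untransduced WT (log2 fold change 0.50, SE 0.32, adjusted p = 0.53, edgeR). In KO cells with Ets1-RV it had 7.37, 11.95, 9.05 and 8.68 CPM, against 6.00, 4.49, 6.80 and 3.98 CPM in WT cells with EV (log2 fold change 0.83, SE 0.27, adjusted p = 0.273, edgeR). On this TMM scale the libraries did not overlap in either comparison. Without TMM scaling the untransduced groups overlapped, at 8.27 to 8.71 CPM in KO, against 4.68 to 8.29 CPM in WT. The transduced groups still stood apart, at 6.44 to 10.3 CPM in KO with Ets1-RV, against 3.14 to 5.59 CPM in WT with EV. In KO with Ets1-RV against WT with EV, 2 of 2 gamma-delta markers tested were lower, with a summed level of 0.409 to 1.71 CPM, against 10.7 to 17.98 CPM, and 2 of 2 Th2 markers tested were higher, at 62.1 to 134 CPM, against 9.77 to 19.9 CPM. Their part in the Bcl2l14 values was not tested. With Ets1-RV against untransduced KO cells the log2 fold change of Bcl2l14 was -0.14 (SE 0.30), with an approximate 95% interval of -0.72 to 0.44.

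Bcl2l11 split by B number in the transduced KO cells, and so did Bcl2, Bak1 and Bcl2l1. B number goes with sex in this experiment, and the share of all genes that split in this way was not counted. For B number 1 and B number 2 of KO with Ets1-RV in turn, Bcl2 had 227 and 220 CPM, against 272 and 259 CPM. Bak1 had 44.2 and 45.1 CPM, against 64.3 and 57.2 CPM, and Bcl2l1 226 and 263 CPM, against 218 and 216 CPM. WT cells with EV also split by B number for Bcl2, Bcl2l1, Bak1 and Bax, though not for Bcl2l11. There Bcl2 had 220 and 208 CPM for B number 1, against 185 and 197 CPM for B number 2. Bcl2l1 had 203 and 214 CPM, against 191 and 197 CPM. For Bcl2l11 the libraries of KO with Ets1-RV had 28.2 and 24.2 CPM for B number 1 and 10.0 and 12.9 CPM for B number 2. Untransduced KO had 36.6 CPM (B number 1) and 30.6 CPM (B number 2) of Bcl2l11. All 4 transduced libraries were below both untransduced ones, and the gap was wider within B number 2 than within B number 1. The log2 fold change was -0.93 (SE 0.29, adjusted p = 0.255, edgeR). Leaving out B number 1 of the Ets1-RV group took it to -1.64 (adjusted p = 0.0248), and dropping the filter on low counts gave an adjusted p of 0.00623. WT cells with EV had 30.4, 20.3, 19.4 and 25.9 CPM, against 24.1 and 23.3 CPM in untransduced WT, and overlapped them. Against WT with EV, KO with Ets1-RV had a log2 fold change of -0.42 (SE 0.27, adjusted p = 0.683, edgeR), or -1.13 (adjusted p = 0.0336) without B number 1 of the Ets1-RV group.

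Bbc3 had 12.9 and 7.004 CPM in untransduced KO, against 5.41 and 7.21 CPM in untransduced WT (log2 fold change 0.78, SE 0.34, adjusted p = 0.31, edgeR), and the groups overlapped. With Ets1-RV the KO libraries held 4.78 to 8.68 CPM, against 7.56 to 11.5 CPM in WT with EV. Bcl2 had 263 and 265 CPM in untransduced KO, against 247 and 251 CPM in untransduced WT, and 220 to 272 CPM in KO with Ets1-RV, against 185 to 220 CPM in WT with EV. Bcl2l1 stood at 191 to 263 CPM and Pmaip1 at 41.3 to 62.8 CPM over the 12 labelled libraries of this experiment. On the TMM scale these ranges lie above those of the first Th1 and Th2 cultures, 105 to 145 CPM for Bcl2l1 and 16.6 to 26.4 CPM for Pmaip1. The TMM factors were 1.09 to 1.18 in the first cultures and 0.770 to 0.932 in the second experiment. Without TMM scaling Bcl2l1 ran over 155 to 226 CPM in the second experiment and overlapped the first cultures. Mcl1 was lower, at 215 to 268 CPM in the second experiment, against 302 to 505 CPM in the first cultures. These 2 experiments were separate and no test was made between them.

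Since Bim is held by Bcl2 in living cells, the ratio of their RNA counts was taken within each library, which needs no scaling between libraries. The log2 ratio of Bcl2 to Bcl2l11 counts was 1.33 ± 0.128 in naive KO and 1.32 ± 0.0280 in naive WT (SD, n = 2 each), and the naive KO libraries (1.24 and 1.42) lay on both sides of the WT libraries (1.30 and 1.34), while both genes were lower in KO. It was 3.65 ± 0.125 in Th1 KO and 3.85 ± 0.334 in Th1 WT, and 3.45 ± 0.144 in Th2 KO and 3.43 ± 0.0970 in Th2 WT (SD, n = 3 each). On the linear scale Bcl2 counts were 14.5-fold those of Bcl2l11 in Th1 WT and 10.8-fold in Th2 WT, against 2.5-fold in naive WT. In the second experiment the log2 ratio was 3.83 ± 1.04 in KO with Ets1-RV and 3.06 ± 0.00900 in WT with EV, and 2.98 ± 0.191 in untransduced KO and 3.39 ± 0.0510 in untransduced WT (SD, n = 2 each). The KO libraries with Ets1-RV split by B number, with 3.01 and 3.18 for B number 1 and 4.77 and 4.33 for B number 2. With counts taken without strand the log2 ratio was lower, at 3.55 in Th1 WT, 3.08 in Th2 WT and 1.03 in naive WT. Counts are not divided by gene length here, so the ratio compares libraries and not the abundance of the 2 RNAs.

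**Figure D5:**
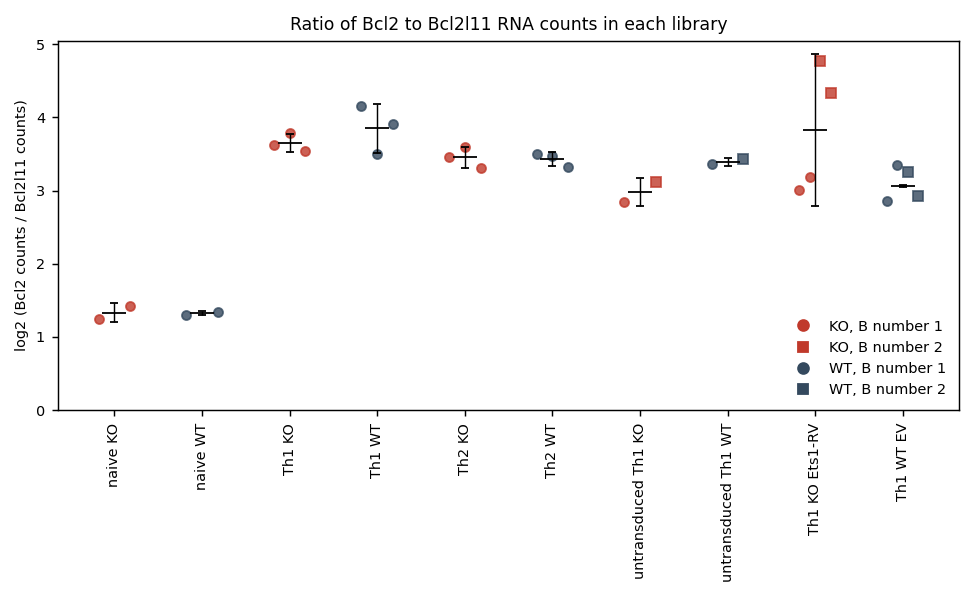
Log2 ratio of Bcl2 to Bcl2l11 counts in each labelled library (circles, B number 1; squares, B number 2; KO red, WT dark), with mean and SD per group as black lines. Naive KO and naive WT lie together near 1.33 and 1.32, the lowest cultured library lies at 2.85, and the Ets1-RV group of KO cells is split by B number.

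In the 8 libraries with contradictory virus labels the log2 ratio ran over a range of 2.17 to 4.11 with a median of 2.72. Their CPM, here without TMM scaling, ran over 147 to 258 for Bcl2 (median 162), 14.95 to 35.6 for Bcl2l11 (median 24.1) and 2.04 to 8.41 for Bcl2l14 (median 3.47). The 12 labelled libraries on the same scale ran over 150 to 232 for Bcl2, 8.53 to 30.8 for Bcl2l11 and 3.14 to 10.3 for Bcl2l14.

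Genes around the family were read from lists of related pathways. Among other Bcl2 family genes, WT Th1 cells against WT naive cells had 6 of 10 tested higher and 1 lower, near the 76.1% of all genes called, with a median log2 fold change of 0.95. They included Bcl2l2, a further survival gene (3.84, SE 0.31), Bad, a BH3-only gene (0.80, SE 0.20), and Bnip3 and Bnip3l, known for mitophagy (5.90, SE 0.14, and 1.11, SE 0.10). Between genotypes 2 of 10 were higher in Th1 KO than in Th1 WT, against 3.66% of all genes called, Bnip3 (0.34, SE 0.08) and Bnip3l (0.34, SE 0.08), and Bnip3 was also higher in untransduced KO (1.25, SE 0.20). In naive cells 0 of 6 tested were called between genotypes by edgeR, with 0 at an unadjusted p under 0.05 and 0 by DESeq2.

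Bbc3 and Pmaip1 are known targets of p53, and other targets were counted from a list. In naive cells 4 of 11 tested were higher in KO and 0 lower, against 17.7% of all genes called, with a median of 0.36 against 0.003 for all genes. They were Ccng1 (0.45, SE 0.08), Trp53inp1 (0.36, SE 0.08), Sesn1 (0.44, SE 0.11) and Sesn2 (0.76, SE 0.26), and DESeq2 called 2 of the list. In Th1 cells 3 of 15 were higher in KO, against 3.66% of all genes, Ccng1 (0.39, SE 0.06), Trp53inp1 (0.39, SE 0.09) and Mdm2 (0.26, SE 0.07), and in Th2 cells 0 of 15 were called by edgeR, with 0 at an unadjusted p under 0.05 and 0 by DESeq2. Against naive cells, 12 of 15 were higher in WT Th1 and 2 lower, against 76.1% of all genes called, led by Cdkn1a, a cell-cycle inhibitor (7.48, SE 0.18).

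Downstream of the mitochondrion, WT Th1 cells against WT naive cells had 8 of 18 apoptosome and caspase genes higher and 6 lower, near the share of all genes called (76.1%), among them Casp6 (3.80, SE 0.14), Apaf1, the apoptosome scaffold (1.65, SE 0.10), and Birc5, a gene of dividing cells (5.36, SE 0.21). In naive cells 1 of 18 was higher in KO, Cycs, which codes for cytochrome c (0.58, SE 0.17), and 2 were lower, Birc6 (-0.22, SE 0.06) and Birc3 (-0.32, SE 0.09), again near the 17.7% of all genes. In the death receptor list 1 of 16 was higher in naive KO, Fas (0.82, SE 0.18), and 2 were lower, Tnfrsf1b (-0.55, SE 0.17) and Casp8 (-0.23, SE 0.08), a share of the list near that of all genes (17.7%); Fasl was lower in Th1 KO (-0.85, SE 0.22), and Tnfrsf1a in Th2 KO (-0.83, SE 0.15). Of 20 genes of survival cytokine signalling, which feeds Bcl2 and Mcl1 through STAT5, 5 were lower and 2 higher in naive KO, against 17.7% of all genes called. Among them were Jak3 (-1.22, SE 0.13), Pim2 (-0.91, SE 0.18), Socs3 (-0.66, SE 0.11) and Jak1 (0.21, SE 0.05). Of these 20, WT Th1 cells against WT Th2 cells had 12 lower and 1 higher, against 29.5% of all genes called. The strongest calls were Socs3 (-0.64, SE 0.08), Stat5b (-0.40, SE 0.06), Pim2 (-0.50, SE 0.08) and Stat5a (-0.53, SE 0.08). Their part in the levels of Bcl2 and Mcl1 was not tested.

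Over the means of the 10 groups, some members followed each other. Bcl2l1 was most like Bak1 (Pearson's r = 0.954 of log2 CPM) and Pmaip1 (r = 0.935), Bax was most like Bcl2l14 (r = 0.926), and Mcl1 ran opposite to Pmaip1 (r = -0.968) and Bcl2l11 opposite to Bax (r = -0.927). Among 9393 genes of at least 5 CPM on average, the gene most like each member was Hmgcs1 for Bcl2l1 (r = 0.999), Glo1 for Bax (r = 0.999), Pex3 for Bcl2 (r = 0.882), Nedd4l for Mcl1 (r = 0.993), Specc1 for Bak1 (r = 0.992), Uvssa for Bcl2l11 (r = 0.987), Phyh for Bbc3 (r = 0.936), Ccdc71l for Pmaip1 (r = 0.994), Hhat for Bid (r = 0.929) and Arfgap3 for Bcl2l14 (r = 0.990). The naive and cultured groups lie far apart on most of these axes, and these points share that split.

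Over all 10 groups the range of the means was narrowest for Bcl2, 1.48-fold, and widest for Bcl2l14, 18.1-fold. The lowest Bcl2l14 mean, 1.34 CPM in naive WT, came from libraries with 7 and 10 counts. Bcl2 ran over 193 CPM in naive KO and 284 CPM in Th1 KO, with all other groups between. Bcl2l11 had its 3 highest means in naive WT (102 CPM), naive KO (76.3 CPM) and untransduced Th1 KO (33.6 CPM). On the TMM scale each was apart from the next, while the 7 groups below, at 18.3 to 24.3 CPM, overlapped with their neighbours in the order. The lowest untransduced KO library (30.56 CPM) lay only just above the highest of WT with EV (30.42 CPM). Without TMM scaling untransduced KO (26.5 to 30.8 CPM) and WT with EV (15.7 to 28.4 CPM) overlapped. Bid had no pair of neighbouring groups whose libraries stood apart, over means of 4.42 to 9.09 CPM.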

How the data were processed

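The authors deposited 1 table of raw gene counts per library, as STAR writes them (release 2.5.0a on GRCm38, as the submitters' processing notes list). Per the labels' protocols the libraries were made from total RNA with a SMARTer Stranded Pico kit. Of the 3 count columns (no strand, and 1 per strand), the one with 93.3% to 95.2% of stranded gene counts was used. The 4 summary lines, 63.6% to 76.0% of what was tabulated, stayed out of library sizes and tests. Depth was 5069623 to 5852673 gene counts for naive libraries, 7311614 to 10256407 for the first cultures, and 1813288 to 6844944 for labelled libraries of the retrovirus experiment. Of 45706 identifiers, 45143 matched GENCODE M21 (not named in the sources used here).

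Counts were fitted with edgeR 4.0.16 (R 4.3.3): filterByExpr, TMM, glmQLFit and glmQLFTest, with Benjamini-Hochberg adjustment over all genes tested and a threshold of 0.05. Naive cells, the first cultures and the second experiment were fitted apart, and comparisons with naive cells in a joint fit of the first 2 sets. Standard errors were derived from the quasi-likelihood F. DESeq2 1.42.0, no low-count filter, scaling by total gene counts, counts without strand, a replicate block and leaving out each library were the alternatives. The fits were tested on simulated counts. Titles give libraries a B and a T number that no label defines, and naive and first-culture libraries all have B number 1, so p-values measure the spread between libraries, which may be technical. Deviations of same-numbered libraries correlated at -0.091 to 0.304 and no label says that numbers pair libraries, so the main fits had no block; in the second experiment same B numbers shared a sex, and the blocked counts are given beside the others. No 2 libraries of a group were identical or differed by less than sampling noise. The 10 members and all gene lists were chosen with earlier results of these data known. Named were all members, and of each list up to 4 called genes with the smallest adjusted p.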

Additional observations from a re-analysis of the deposited data

Results flagged for a closer look

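A total of 5 differences between states in the effect of the genotype passed the test of the difference itself (edgeR's quasi-likelihood test, adjusted over all genes). For Bcl2 the KO over WT log2 fold change was 0.52 greater in Th1 than in naive cells (3 KO against 3 WT and 2 KO against 2 WT libraries; lower in 2 of 2 naive KO libraries). For Bcl2l11 it was 0.723 greater in Th1 than in naive cells. For Bbc3 the difference was -1.275, since Bbc3 was 2.58-fold higher in naive KO and near even in Th1. Against Th2 cells the same measure was 0.5 for Bcl2 and -1.035 for Bbc3. Both naive genotype groups differ in sex and in the handling-stress list as well, and the part of these in the 5 differences was not tested. No library stood apart from the other 3 of its group for any member in the 20 member-by-group sets of 4 libraries that were tested.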

How the results depend on the processing

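Of 30 member results past the threshold, 24 stayed past it under every alternative run; of 120 others, 8 passed under some. None of the 30 changed sign, while results that did not pass changed sign in several cases (Bid in naive cells, -0.389 to 0.251 over the alternatives). Of the 10 group ratios of Bcl2 to Bcl2l11, 8 moved by more than 1 SD with counts without strand. Between scalings, 72 of the 100 means of a member in a group moved by more than 1 SD. The Bbc3 difference between Th2 and naive cells was lost without the second naive WT library (adjusted p = 0.0607), and the Bcl2 one with counts without strand (adjusted p = 0.0562). Counts of called genes moved more. DESeq2 called 865 genes in naive KO against WT, 78 in Th2 KO against WT, 22 for Th1 minus Th2, 40 for Ets1-RV against untransduced KO and 3 for the difference of virus effects. Without the low-count filter there were 835 in Th1 KO against WT, 224 in Th2, 213 for Th1 minus Th2, 416 in untransduced cells, 257 for KO Ets1-RV against WT EV, 17 for WT EV against untransduced, 212 for KO Ets1-RV against untransduced and 29 for the difference of virus effects. Scaling by total counts gave 47 in untransduced cells, 12 for KO Ets1-RV against WT EV and 4 for KO Ets1-RV against untransduced. With each library as a replicate these 3 comparisons gave 266, 441 and 126, and the difference of virus effects 6.

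No label says what a shared number means (correlation of deviations -0.047 in naive cells, -0.091 to 0.103 in Th1 and -0.024 to 0.105 in Th2); in the second experiment a shared B number goes with a shared sex (correlation 0.046 to 0.304). With the replicate block there were 63 calls in Th2 KO against WT, 212 in untransduced cells, 95 for KO Ets1-RV against WT EV, 45 for KO Ets1-RV against untransduced KO and 1 for the difference of virus effects; Bax then passed in WT Th1 against Th2 (adjusted p = 0.0337).

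Leaving out 1 library (in the second experiment 1 B number) gave 399 to 1219 calls in naive KO against WT, 176 to 600 in Th1, 14 to 68 in Th2, 0 to 3 for Th1 minus Th2, 1380 to 2413 in KO Th1 against Th2, 22 to 188 in untransduced cells, 10 to 91 for KO Ets1-RV against WT EV, 0 to 5 for WT EV against untransduced, 0 to 55 for KO Ets1-RV against KO untransduced, 0 to 4 for the difference of virus effects, 170 to 520 for Th1 minus naive and 190 to 545 for Th2 minus naive. The cause was not tested. Where this left a group with 1 sample, that sample was assumed to vary like the other groups. The lowest depth among labelled libraries was in the second experiment, at 1813288 gene counts.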
